A study of Mus musculus with 12 samples.

Results

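The BCL2 family genes described here are 10 mouse genes of the mitochondrial pathway of cell death, taken by symbol from the table of neutrophils sorted from the heart. Of the 10, 9 are among the 11911 genes of the table (Mcl1, Bcl2a1a, Bcl2a1b, Bcl2a1d, Bcl2l1, Bax, Bcl2l11, Bid and Bad), and Bak1 is not listed in it. The samples are 12 RNA-seq libraries of mouse left ventricle neutrophils, 6 of the genotype labelled control and 6 of the genotype labelled LOY, where the series title reads LOY as a hematopoietic loss of chromosome Y. The labels name a bone marrow transplant (BMT) and the treatment "Control" for every library of both groups, and 800 cells per library were sorted as CD45.2+, Ly6G+, CD64- and RFP+. Age, sex and strain of the mice, the means by which LOY was made and whether each library is 1 mouse are not stated in the labels, so p-values measure the spread between libraries, which may be technical. Libraries are named by genotype and by the number in their title.

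Proteins of the BCL2 family decide whether the outer membrane of the mitochondrion stays closed. The survival members (MCL1, BCL-XL, A1) bind and hold back the pore-forming effectors BAX and BAK, and the BH3-only members (BIM, BID, BAD) either occupy the survival members or activate the effectors, after which cytochrome c is released and caspases are switched on. Neutrophils live briefly, lean strongly on the short-lived protein MCL1, and induce A1 when growth factors or inflammatory signals reach them.

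No member differed between LOY and control libraries past the threshold. Levels are normalised reads, meaning that the authors scaled the reads of each library by a common factor, and the test was limma on log2(normalised reads + 1) with Benjamini-Hochberg adjustment over 6951 genes and a threshold of 0.05 on the adjusted p. The 9 members of the table all entered the test and 0 passed it, where 0.0288% of all genes tested passed. At an unadjusted p below 0.05 stood 1 member, Bad, against 4.37% of all genes. DESeq2 on the reads recovered from the table called 0 of the 9 members and 3.12% of genes, and edgeR called 0 of the 9 and 0% of genes. The log2 fold change was positive for 4 members and negative for 5, with a median of -0.21, beside 3500 positive and 3451 negative values and a median of 0.0081 over all genes tested. The ranges of the 2 groups overlapped for each of the 9 members, while 0.201% of all genes tested had groups that did not overlap.

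**Figure D1:**
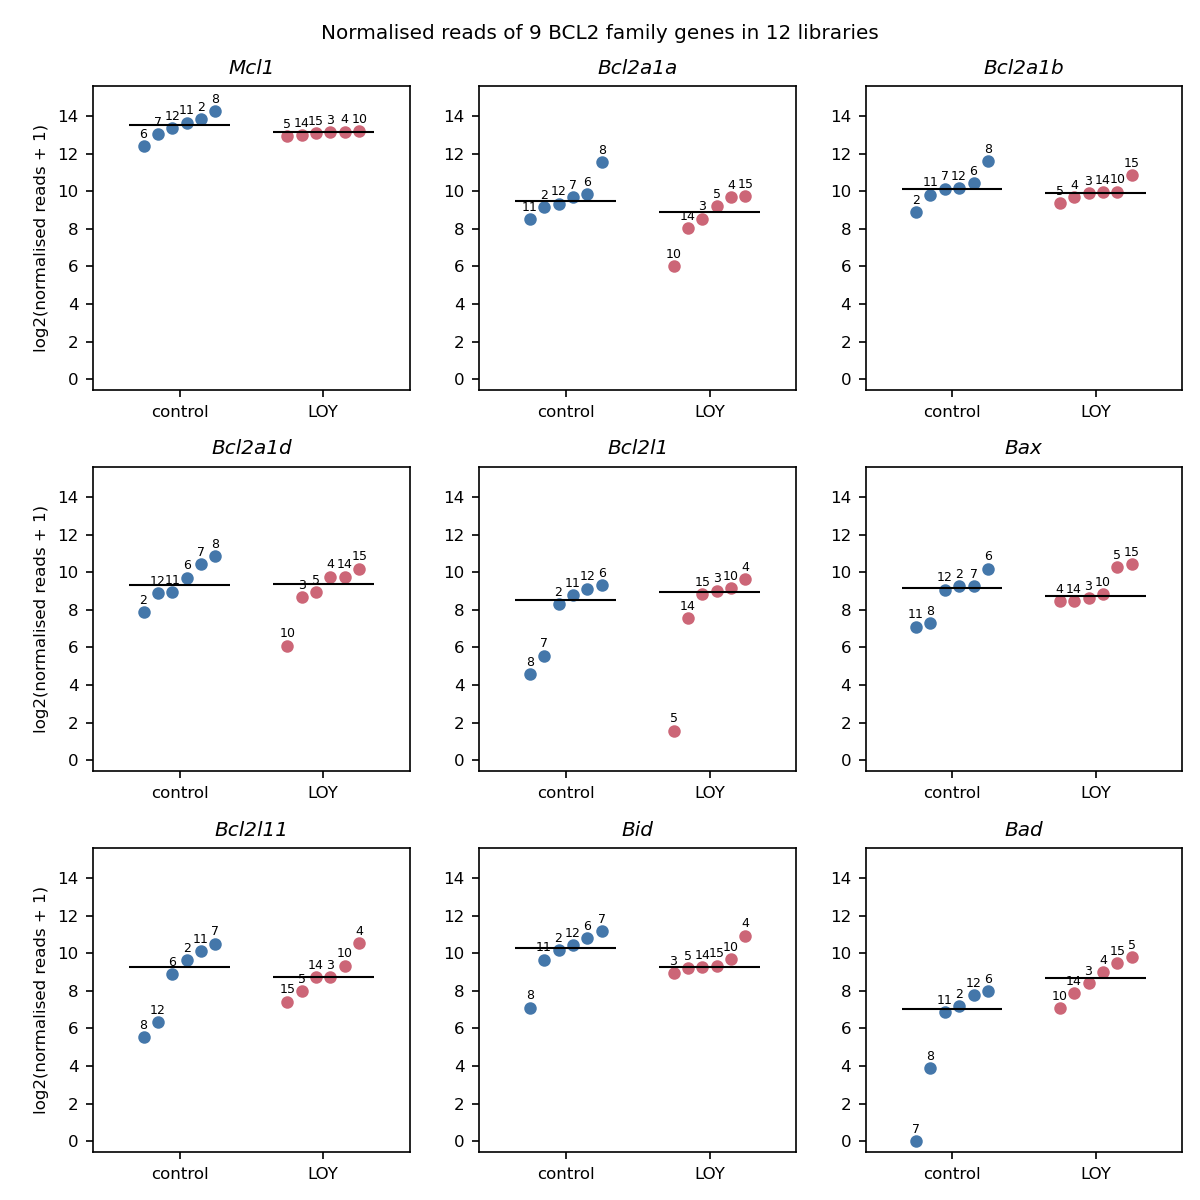
Level of each of the 9 members of the table in every library, as log2(normalised reads + 1), with control libraries in blue, LOY libraries in red, library numbers beside the points and a line at the group median. The groups overlap in all 9 panels, Mcl1 lies in a narrow band in LOY, and Bad has the lowest point, at 0 in control 7.

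The libraries set the limits of these comparisons. Between 6767108 and 12561174 reads of the listed genes were recovered per library. The summed neutrophil markers ran from 255939 to 665082 normalised reads in control and from 231519 to 436560 in LOY libraries, and 18 of the 20 markers were above 0 in all 12 libraries. Y-linked transcripts, which check the labels, summed to 1032 to 1972 in control and to 0 to 59.3 in LOY libraries. Of 2 Y-linked genes tested, both with a negative log2 fold change (median -7.44), 1 passed the threshold in limma. A large loss can thus miss this threshold. The 15 cardiomyocyte markers summed to 4117 to 8251 in control and to 4429 to 64673 in LOY libraries (7 of the 15 above 0 in all 12), and 5 of the 6 LOY libraries were above every control library. The 10 endothelial markers summed to 1064 to 4097 and 2478 to 6530 (2 of the 10 above 0 in all 12), with 3 LOY libraries above every control library, and the 8 fibroblast markers to 2972 to 10539.5 and 5835 to 16383 (2 of the 8), again with 3. By gene, 14 of 14 tested cardiomyocyte markers, 7 of 9 endothelial and 6 of 6 fibroblast markers had a positive log2 fold change (medians 1.77, 1.70 and 1.88). Of these 0 passed the threshold in limma, and 5, 2 and 1 had an unadjusted p below 0.05, against 4.37% of all genes tested. Most markers of heart cells thus had higher values in the LOY group without passing the threshold, and their part in the values of the members was not tested. Among lists of blood cells, macrophage markers summed to 7372 to 11355 in control and 4102 to 13988 in LOY libraries, B cell markers to 3263 to 12354 and 2996 to 8887, dendritic and class II markers to 5328 to 38381 and 9300.03 to 47165, and red cell and platelet markers to 13.6 to 10063 and 165 to 7385. Of 9 T and NK cell markers 2 are in the table, Cd3d and Nkg7, with sums of 0 to 439.9 and 0 to 658. Among single neutrophil markers 5 had a positive and 14 a negative log2 fold change (median -0.21), with 0 past the threshold in limma. Positive and negative counts were 2 and 8 for macrophage and 1 and 6 for B cell markers. They were 2 and 3 for dendritic and class II and 1 and 4 for red cell and platelet markers. The part of these lists in the values of the members was not tested either. In sorted cells measured in bulk, fewer cells of a type and less RNA per cell cannot be told apart.

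Mcl1, the survival gene on which neutrophils depend, was the most abundant member in both groups. The gene (ENSMUSG00000038612) lies on GRCm38 chromosome 3, 95658788 to 95663176, plus strand. Control libraries ran from 5401 through a median of 11712 to 19555 normalised reads, and LOY libraries from 7783 through 8949 to 9324. All 6 LOY libraries lay inside the control range, with 4 control libraries above all of them and 1, control 6, below. The means were 11890.2 ± 4942 in control and 8731 ± 619.7 in LOY (SD, n = 6 each), a log2 fold change of -0.33 (SE 0.26, 95% interval -0.90 to 0.23, adjusted p = 0.997 in limma). With all 12 libraries Mcl1 was the single member whose interval lay within a 2-fold change in either direction, but its lower limit passed a 2-fold decrease without control 6 (-1.005) or control 7 (-1.01). The value moved with the end libraries of the control group. Without control 8, the highest, it was -0.17, and without control 6, the lowest, it was -0.54 (95% interval -1.005 to -0.074, unadjusted p = 0.0262, adjusted p = 0.975 in limma).

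Bcl2a1a, Bcl2a1b and Bcl2a1d encode near-identical copies of A1, and their reads are hard to assign. All 3 lie on GRCm38 chromosome 9: Bcl2a1d (ENSMUSG00000099974) at 88723285 to 88731914 on the minus strand, Bcl2a1a (ENSMUSG00000102037) at 88956900 to 88962419 and Bcl2a1b (ENSMUSG00000089929) at 89199209 to 89207827 on the plus strand. Their coding sequences are each 519 bases long in the GENCODE M21 transcripts. Bcl2a1a and Bcl2a1b are 97.9% identical, Bcl2a1a and Bcl2a1d 98.7%, and Bcl2a1b and Bcl2a1d 98.8%. Of the 12 positions at which the copies differ, 7 fall in the first 150 coding bases, shown here because a short read can be told apart only where it crosses such a base. Capitals mark the positions that differ between the copies.
Bcl2a1a: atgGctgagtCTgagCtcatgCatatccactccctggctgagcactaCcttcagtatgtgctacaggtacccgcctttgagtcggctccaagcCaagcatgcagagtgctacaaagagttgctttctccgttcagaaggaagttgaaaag
Bcl2a1b: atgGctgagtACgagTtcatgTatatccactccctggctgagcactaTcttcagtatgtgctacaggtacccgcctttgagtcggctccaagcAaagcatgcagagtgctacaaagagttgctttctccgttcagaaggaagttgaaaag
Bcl2a1d: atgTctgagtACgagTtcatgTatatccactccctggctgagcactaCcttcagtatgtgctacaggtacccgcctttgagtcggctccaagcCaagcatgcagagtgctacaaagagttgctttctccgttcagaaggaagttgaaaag
Of the stretches of 100 bases in each transcript, 43.5% of those of Bcl2a1a, 56.8% of Bcl2a1b and 54.7% of Bcl2a1d also occur in a transcript of another gene. The annotation also holds Gm29094, a protein-coding gene on the same strand as Bcl2a1b that shares 401 of its exon bases (49.1%). Gm29094 had 0 to 32.4 normalised reads in control and 0 to 41.2 in LOY libraries. The labels do not say how reads on shared bases were assigned, so the values of single copies are uncertain and their sum is given too. The sum allows only for reads moved between the copies. If reads on shared bases were left uncounted, the sum is too low as well.

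Summed over the 3 copies, A1 transcripts ran from 1277 through a median of 2691 to 7942 normalised reads in control libraries and from 1137 through 1929 to 3895 in LOY libraries. All LOY libraries except LOY 10, which lay just below the lowest control library, fell inside the control range, and control 8 stood above every other library. For the sum the log2 fold change was -0.43 (SE 0.42, 95% interval -1.32 to 0.47, adjusted p = 0.997 in limma, with the sum as 1 row in place of the 3 copies). Without control 8 it was -0.12, with means of 2349 ± 878 (SD, n = 5) and 2190 ± 950.5 (SD, n = 6).

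Among the single copies Bcl2a1a had the most negative log2 fold change, at -1.14 (SE 0.68, 95% interval -2.61 to 0.32, adjusted p = 0.997 in limma). It ran from 368 through a median of 728 to 2996 normalised reads in control and from 63.6 through 482 to 856 in LOY libraries. LOY 10 and LOY 14 lay below all control libraries, and control 8 and control 6 above all LOY libraries. The log2 fold change was -0.64 without LOY 10 and -0.77 without control 8. Bcl2a1d ran from 236 through 665 to 1852 in control and from 67.1 through 678 to 1169.9 in LOY libraries, again with LOY 10 lowest and control 8 highest of the 12. Its log2 fold change of -0.55 (SE 0.71) was 0.016 without LOY 10. Bcl2a1b ran from 476 through 1130.2 to 3094 in control and from 658 through 972 to 1869 in LOY libraries, and its log2 fold change of -0.21 (SE 0.42) was 0.075 without control 8. In LOY 10 Bcl2a1b took 88.5% of the reads of the 3 copies, against 32.7% to 55.2% in the other 11 libraries. LOY 10 also had the highest cardiomyocyte sum of the 12 libraries, and the part of either in the other was not tested.

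Bcl2l1, which encodes the survival protein BCL-XL (ENSMUSG00000007659, GRCm38 chromosome 2, 152780668 to 152831728, minus strand), had a small log2 fold change with a wide interval. Its means were 338 ± 259 normalised reads in control and 419 ± 281 in LOY libraries (SD, n = 6 each). Bcl2l1 ran from 22.8 through a median of 376 to 642 normalised reads in control and from 1.98 through 487 to 786 in LOY libraries. LOY 5 held 2 reads, the lowest of the 12 libraries, while the other 5 LOY libraries had 188 to 786. Its log2 fold change was 0.011 (SE 1.39, 95% interval -2.96 to 2.99, adjusted p = 0.9999 in limma), and 1.22 without LOY 5 and -0.60 without control 8. These data thus leave changes of more than 2-fold in either direction inside the interval.

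Bax, the effector that forms pores in the outer membrane (ENSMUSG00000003873, GRCm38 chromosome 7, 45461697 to 45466898, minus strand), did not pass either. It ran from 137 through a median of 572 to 1173 normalised reads in control and from 352 through 424 to 1378 in LOY libraries. LOY 5 and LOY 15 were above every control library and control 8 and control 11 were below every LOY library. The means were 537 ± 379.6 and 693 ± 475 (SD, n = 6 each), so the mean was higher and the median lower in LOY. On the log2 scale the fold change was 0.48 (SE 0.64, 95% interval -0.88 to 1.84, adjusted p = 0.999 in limma). Bak1, which encodes the partner effector BAK, has no row, so the effectors are described by Bax alone.

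**Figure D2:**
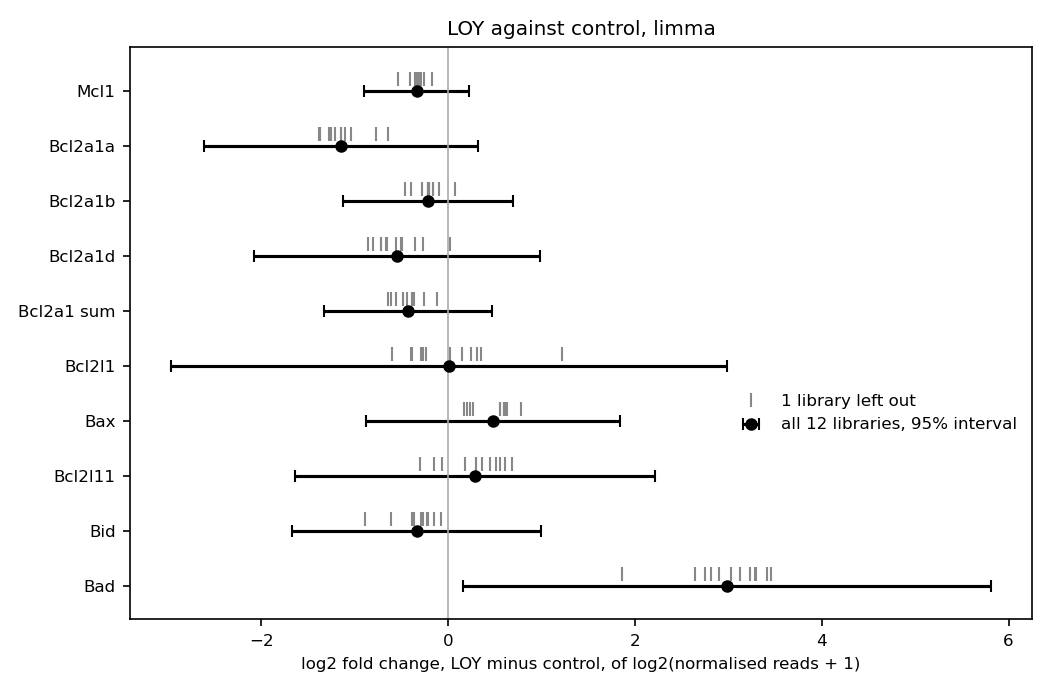
Log2 fold change of LOY over control with the 95% interval from limma for the 9 members and the summed Bcl2a1 copies (black), on the scale of log2(normalised reads + 1), with grey ticks for the value when 1 library is left out. The Mcl1 interval is the narrowest, the Bcl2l1 interval runs from -2.96 to 2.99, and Bad is the single member whose interval lies above 0.

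Of the BH3-only genes, Bad had the largest difference between the groups, and it missed the threshold over all genes. BAD is held inactive by survival kinases and, when released, binds BCL-XL. The gene (ENSMUSG00000024959) lies on GRCm38 chromosome 19, 6941861 to 6951899, plus strand. Control libraries ran from 0 through a median of 131 to 251 normalised reads, and LOY libraries from 135 through 423 to 878. LOY 3, 4, 5 and 15 were above every control library, and control 7, 8 and 11 were below every LOY library. Control 7 had 0 of 10193931 reads, which allows up to 2.49 normalised reads (3 reads, counting error only), and control 8 had 11 reads. The means were 124 ± 103 and 467 ± 286 (SD, n = 6 each), a ratio of 3.77. The log2 fold change was 2.98 (SE 1.32, 95% interval 0.16 to 5.81, unadjusted p = 0.0400, adjusted p = 0.997 in limma).

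The size of that difference leaned on the low control libraries when measured on the log scale. Without control 7 the log2 fold change was 1.86, with an unadjusted p of 0.0629 (adjusted p = 0.988 in limma), and it was positive in each of the 12 fits with 1 library left out, from 1.86 to 3.46. The 95% interval reached 0 in 6 of those 12 fits. The ratio of means ran from 3.10 to 4.75 over the same omissions. In the authors' deposited table Bad has a log2 fold change of 1.91, a p of 0.0480 and an adjusted p of 0.488. DESeq2 on the recovered reads gave the same log2 fold change and p, so these are not separate evidence. Bad shares 524 exon bases (20.5%) with Gpr137 on the opposite strand, and without strand reads there cannot be told apart. Gpr137 itself had 362 ± 232 normalised reads in control and 265 ± 185 in LOY libraries (SD, n = 6 each). Like Bad, the cardiomyocyte sum was higher in most LOY libraries than in control libraries. In the LOY libraries taken from the highest to the lowest Bad value (LOY 5, 15, 4, 3, 14 and 10) that sum was 4429, 15419.7, 11202, 15143, 12198 and 64673, and its part in the difference of Bad was not tested.

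Bcl2l11, the gene of BIM (ENSMUSG00000027381, GRCm38 chromosome 2, 128126038 to 128162547, plus strand), and Bid, whose protein is cut by caspase-8 downstream of death receptors (ENSMUSG00000004446, chromosome 6, 120891930 to 120916853, minus strand), did not pass the test. Bcl2l11 ran from 45.6 through a median of 628 to 1455 normalised reads in control and from 169.9 through 423 to 1490.1 in LOY libraries, with control 8 and control 12 below all LOY libraries and LOY 4 above all control libraries. Its log2 fold change was 0.29 (SE 0.90, 95% interval -1.64 to 2.21, adjusted p = 0.999 in limma), while the ratio of means was 0.861, so the 2 measures pointed in different directions. Bid ran from 137 through 1253 to 2309 in control and from 489 through 624.5 to 1961 in LOY libraries. Apart from LOY 4, the LOY libraries lay between 489 and 812, and apart from control 8 the control libraries lay between 808 and 2309. The log2 fold change of Bid was -0.34 (SE 0.62, 95% interval -1.67 to 0.99, adjusted p = 0.999 in limma) and moved in both directions with single control libraries, to -0.89 without control 8 (unadjusted p = 0.0510), -0.15 without control 6 and -0.079 without control 7. Bid shares 628 exon bases (17.7%) with the family member Bcl2l13 on the opposite strand.

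Across the 9 members the intervals placed unequal limits on a change. An increase of 2-fold or more in LOY lay outside the 95% interval for 5 members (Mcl1, the 3 Bcl2a1 copies and Bid), and a decrease of 2-fold or more lay outside it for 3 (Mcl1, Bax and Bad). Several of these limits were close. With 1 library left out the upper limit reached a 2-fold increase in 10 of 12 fits for Bid (up to 1.30) and in 7 of 12 for Bcl2a1d (up to 1.31), and in 0 of 12 for Mcl1, Bcl2a1a and Bcl2a1b. The lower limit reached a 2-fold decrease in 4 of 12 fits for Bax, 2 of 12 for Mcl1 and 0 of 12 for Bad. For 2 members, Bcl2l1 and Bcl2l11, the interval included a 2-fold change either way.

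In control 8 each of the 9 members lay at or next to an end of its range. Of all 12 libraries it ranked 1 for Mcl1 and for each of the 3 Bcl2a1 copies, 12 for Bcl2l11 and Bid, and 11 for Bcl2l1, Bax and Bad. The survival genes Mcl1 and Bcl2a1 were thus at their highest where Bcl2l1, Bax and the BH3-only genes were at or next to their lowest. Control 8 also had the highest summed neutrophil markers (665082 normalised reads). Over the 4646 tested genes with a mean of 100 to below 1000 normalised reads, the median of its log2 deviation from the 12-library mean was -0.039, the lowest of the 12, where the other 11 ran from 0.19 to 0.89. The means of Bcl2l1, Bcl2l11, Bax and Bad lie in that range and that of Bid above it. Those of Bcl2a1a and Bcl2a1d, which were at their highest in control 8, lie in the range too. The part of this shift in the values of control 8 was not tested.

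**Figure D3:**
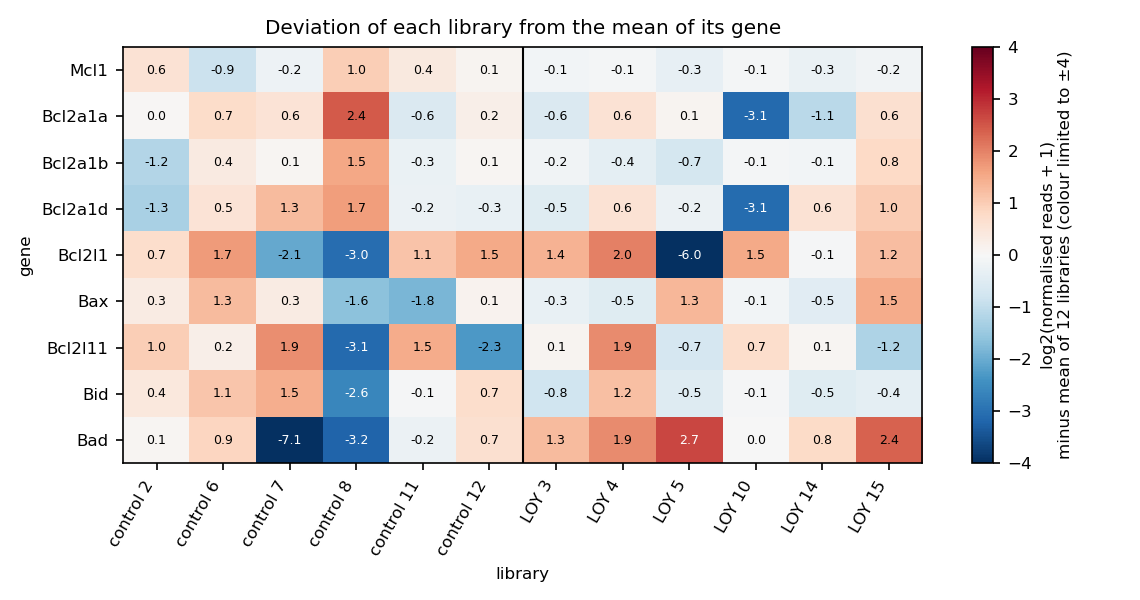
Deviation of each library from the 12-library mean of each gene, in log2(normalised reads + 1), with control libraries left and LOY libraries right of the line. The column of control 8 is red for Mcl1 and the Bcl2a1 copies and blue for the other 5 genes, and the darkest blue cells are Bad in control 7 and Bcl2l1 in LOY 5.

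Levels were compared between genes per kilobase of exon, the union of all annotated exons of a gene, which understates genes with long alternative exons. Mcl1 stood first with a median of 2679 normalised reads per kb over the 12 libraries. It was followed by Bcl2a1b at 1217, Bcl2a1d at 771, Bcl2a1a at 755, Bax at 314, Bid at 228, Bcl2l1 at 97.3, Bad at 88.6 and Bcl2l11 at 55.9. Mcl1 exceeded Bcl2a1b in 11 of 12 libraries, by a mean of 1.13 in log2 (SD 0.76), and Bid exceeded Bcl2l1 in 12 of 12, by 2.35 (SD 2.00). For the other neighbours in this order (Bcl2a1b to Bcl2a1d, Bcl2a1d to Bcl2a1a, Bcl2a1a to Bax, Bax to Bid, Bcl2l1 to Bad and Bad to Bcl2l11) the mean difference was smaller than its SD between libraries. Of the per-kb sum of the 5 survival members, Mcl1 made up 48.6% ± 16.8 in control and 49.99% ± 9.79 in LOY libraries, and the 3 Bcl2a1 copies 50.1% ± 16.9 and 48.3% ± 10.2 (SD, n = 6 each). Reads on bases shared by the copies may be uncounted while their full exon length is used. The ranks and shares of the Bcl2a1 copies against Mcl1 and the other members are therefore uncertain.

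**Figure D4:**
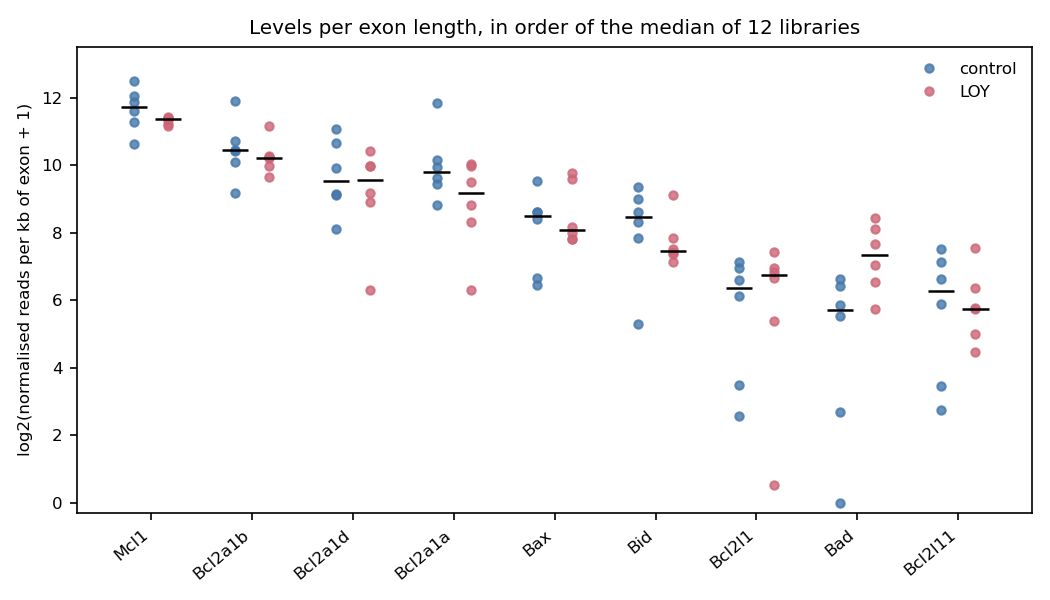
Normalised reads per kb of exon, as log2(value + 1), for the 9 members in order of their 12-library median, with control libraries in blue, LOY libraries in red and a line at each group median. The medians of Mcl1 and the Bcl2a1 copies lie above those of Bax and Bid, and the medians of Bcl2l1, Bad and Bcl2l11 lie lowest. Single libraries cross this order.

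Other genes of the family and of the steps around it were counted in the same limma fit, with 0 past the threshold over all genes. Of 16 other BCL2 family genes 10 are in the table and 5 were tested, 2 with positive and 3 with negative log2 fold changes (median -0.077). The founding survival gene Bcl2 was below the filter, with medians of 0.837 normalised reads in control and 0.494 in LOY libraries and above 0 in 7 of 12, and Bcl2l2, which encodes the survival protein BCL-W, was above 0 in 2 of 12. Pmaip1, which encodes the BH3-only protein NOXA that binds MCL1, was read in all 12 libraries. It had 1009 through a median of 1905 to 3488 normalised reads in control and 1582 through 1888 to 2098 in LOY libraries (log2 fold change -0.077, SE 0.30). The 3 tested genes of smallest p were Bcl2l13 (3.42, SE 1.76), the mitophagy receptor gene Bnip3l (-0.51, SE 0.28) and Bbc3, the gene of the BH3-only protein PUMA (-1.25, SE 1.78). Bnip3l ran from 1197 through 1747 to 2470.4 in control and from 969 through 1219 to 1798 in LOY libraries.

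Downstream of the mitochondrion, 8 of 14 apoptosome and caspase genes were tested, 4 positive and 4 negative (median 0.24). The genes of smallest p, the initiator caspase gene Casp9 (2.23, SE 1.95), the effector caspase gene Casp6 (2.10, SE 1.91) and Diablo, whose protein frees caspases from their inhibitors (2.02, SE 1.94), were each at 0 in at least 1 control library. Casp6 was also at 0 in 1 LOY library. Of 8 genes listed as caspase inhibitors 6 were tested, 3 positive and 3 negative. Of them 2, Cflar and Birc3, had an unadjusted p below 0.05 (adjusted p = 0.997 for each in limma), against 4.37% of all genes tested. Their log2 fold changes were -1.54 (SE 0.56) for Cflar and 1.12 (SE 0.46) for Birc3. Cflar, the brake on caspase-8, ran from 622 through a median of 869.7 to 1299.8 normalised reads in control and from 109 through 291 to 1438 in LOY libraries. Birc3, an inhibitor of apoptosis protein, ran from 407 through 1586 to 2376 and from 1371 through 2748 to 7059. Naip2, of the same domain family, had a log2 fold change of 2.22 (SE 2.05).

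Genes that set the turnover of the MCL1 protein numbered 8, with 6 tested, 2 positive and 4 negative (median -0.046). Fbxw7, a ubiquitin ligase subunit that targets MCL1, had a log2 fold change of 2.54 (SE 1.52), Tpt1, whose protein binds MCL1, at 0.071 (SE 0.31), and the ubiquitin ligase gene Huwe1 at -0.32 (SE 1.54). A mixed list of 10 genes held channel genes (Vdac1, Vdac2 and Vdac3), fission and fusion genes (Dnm1l, Opa1, Mfn1 and Mfn2), and Bcap31, Ywhaz and Ywhae. Of this list 8 were tested, 1 positive and 7 negative (median -0.41). Among them were Mfn2, which fuses outer membranes (2.96, SE 1.80), Bcap31 (-1.59, SE 1.38) and Vdac2, the channel that binds BAK (-0.43, SE 0.63).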

How the data were processed

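Per the labels' protocols, neutrophils were sorted from enzyme-digested left ventricles (800 cells a library), and SMART-Seq v4 cDNA went into Nextera XT libraries; the chemistry keeps neither strand nor molecular identifiers. The submitters' processing notes name STAR 2.5.2b, featureCounts (Subread 1.5.2), Trimmomatic 0.36 and bcl2fastq 2.17, and the builds mm10 and GRCm38. What the authors deposited is 1 table of 11911 genes, whose signal columns hold gene reads scaled by a common factor for each library, with their own log2 fold change, p-value and adjusted p-value; the labels do not name the tool behind those. In each library 100% of the values above 0 were whole multiples of a common step (tolerance 0.01 reads), so the reads could be recovered; DESeq2 size factors of these reads matched the deposited factors (largest relative difference 2.45e-11). Symbols turned into dates or left blank were replaced from GENCODE M21 for 17 genes, and 11892 identifiers matched it.

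The test was limma 3.58.1 (trend, robust empirical Bayes) on log2(normalised reads + 1), genotype as the single term, for genes of at least 10 in at least 6 libraries. It was tried first on simulated data with less spread between libraries than most genes here. Over all genes tested here the median log2 SD was 2.20 in control and 2.11 in LOY libraries. The simulation does not show how the test performs at that spread. Alternatives were DESeq2 1.42.0 and edgeR 4.0.16 on the recovered reads, quantile normalization, 2 filters, pseudocounts of 0.5 and 5, array weights and each library left out. A paired fit was not made. No pair of libraries agreed within sampling noise (lowest chi-square per degree of freedom 196.6). Intervals cover 95%. Members and lists were chosen with earlier results of these data known. All listed members are named, and of each other list up to 3 tested genes of smallest p; Bcl2, Bcl2l2 and Pmaip1 were added for their roles after their values were seen.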

Additional observations from a re-analysis of the deposited data

Results flagged for a closer look

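A value was picked out here when, within its group of 6 libraries and on the log2(normalised reads + 1) scale, its gap to the nearest library divided by the range of the group exceeded 0.625, Dixon's 95% critical value. Of 70 groups of values tested 13 gave such a value, where chance gives about 5% of groups. Among the members these were Bcl2a1d in LOY 10 (67.1 normalised reads), Bcl2l1 in LOY 5 (1.98), Bid in control 8 (137) on the low side, and Bid in LOY 4 (1961) on the high side. Without LOY 4 the mean of Bid in LOY was 627 ± 118 (SD, n = 5) and its log2 fold change -0.61. LOY 5 was lowest as well for Naip2 (0.989), the fusion gene Mfn2 (3.96) and the channel gene Vdac2 (81.1). LOY 3 was lowest for Bcl2l13 (0.703) and Casp9 (2.11). Control 12 was lowest of its group for Birc3 (407) and for Huwe1 (7.40), and LOY 4 for Huwe1 (0). The summed T and NK cell markers of control 7 (439.9) stood above those of the other control libraries.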

How the results depend on the processing

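No paired analysis was possible because the libraries of the 2 genotypes share no number in their titles. No alternative brought a member past the threshold: 0 of 9 were called in each of the 20 other fits. The count over all genes, 2 in limma, was 1 with quantile normalization, 0 without a filter, 0 with a mean of at least 50, 303 with DESeq2 and 0 with edgeR (130 at an unadjusted p below 0.05), and 0 to 4 with 1 library left out; the cause was not tested. The sign of Bcl2l1 turned with quantile normalization (-0.059) and a pseudocount of 0.5 (-0.026), and that of Bcl2l11 with DESeq2 (-0.22) and edgeR (-0.26). With 1 library left out the log2 fold change ran from -0.60 to 1.22 for Bcl2l1, from -0.31 to 0.69 for Bcl2l11, from -0.47 to 0.075 for Bcl2a1b, from -0.86 to 0.016 for Bcl2a1d and from -0.64 to -0.12 for the summed copies. Mcl1 (-0.54 to -0.17), Bcl2a1a (-1.38 to -0.64), Bax (0.17 to 0.78), Bid (-0.89 to -0.079) and Bad (1.86 to 3.46) kept their sign there and in the 8 other fits. Bad in control 7 and 8 and Bcl2l1 in LOY 5 rest on 0, 11 and 2 reads. Both genes had more reads in LOY 4 (440 and 676), the library with the fewest reads in all (6767108), and the cause of the low values was not tested.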

Other observations

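The spread of Mcl1 between libraries was smaller in LOY than in control, a pattern chosen after its values were seen and given without a test. On the log2(normalised reads + 1) scale the SD was 0.65 in control and 0.10 in LOY libraries (n = 6 each), a ratio of 0.162. Of the 1080 tested genes with a mean of 1000 or more normalised reads 0.185% had a smaller ratio, and in 50.7% the control SD was the larger of the pair. Without control 8 the control libraries still ran from 5401 to 14495 normalised reads. Pmaip1, whose protein NOXA binds MCL1, had SDs of 0.61 and 0.18, a ratio of 0.291, with 2.96% of the same genes below it. The smaller SD in LOY was not particular to these 2 genes. Among the other members the ratio was 0.325 for Bad, 0.492 for Bid, 0.526 for Bcl2l11, 0.573 for Bcl2a1b and 0.744 for Bax. Bcl2l1, Bcl2a1d and Bcl2a1a had the larger SD in LOY on this scale (3.04, 1.49 and 1.40, against 2.03, 1.10 and 1.03 in control). Each of these LOY SDs leaned on a single low library. For Bcl2l1, LOY 5 lay at -6.05 from the 12-library mean in log2 and the other LOY libraries at -0.057 to 2.00. For Bcl2a1d and Bcl2a1a, LOY 10 lay at -3.09 and -3.10, and the other LOY libraries at -0.49 to 1.01 and -1.08 to 0.63. SDs on the log2 scale without these libraries were not taken. In normalised reads the control and LOY SDs were 972 and 317 for Bcl2a1a, 623 and 396 for Bcl2a1d, and 259 and 281 for Bcl2l1. The larger LOY SD of the 2 Bcl2a1 copies thus depended on the log scale. In normalised reads the LOY SD of Bcl2l1 was 215 without LOY 5. Without LOY 10 it was 310 for Bcl2a1d and 265 for Bcl2a1a.

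The genes whose ranks within genotype over the 12 libraries were most like those of Mcl1 had a Spearman rho of 0.914, reached by 5 genes, among them Hps4, Larp4b and Ppp1r12c. This is a description of the same libraries that share depth and cell content, and no test was attached.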
